A study of Mus musculus with 32 samples.

Results

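Thyn1 encodes thymocyte nuclear protein 1, also called Thy28, and is 1 gene of the 28784 gene names on the arrays. Its members are the 2 probes that the scanner files name Thyn1. It was chosen by the adjusted p of a difference of responses. It was the single gene under 0.05 for P72 against R72 thymocytes 2 h after irradiation. Every Thyn1 value from the P72 and R72 arrays at 0 h and 2 h therefore describes that choice and is given without a test. For other genes, tests on these arrays are given below, from the same arrays that chose Thyn1. The Thyn1 tests use the 4 h levels of P72 and R72 and the p53-/- and p53+/+ levels. The means of those levels did not enter the choice. The spread did: the fit that chose the gene pooled it over all 24 P72 and R72 arrays, 4 h included, and the limma tests below share that spread.

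Thymocyte RNA of 6-week-old C57Bl/6 mice was measured on 32 single-colour Agilent arrays, each holding a pool of 2 mice per the labels. P72 and R72 mice, which differ at codon 72 of p53 (proline or arginine), had 4 arrays each without irradiation (0 h), at 2 h and at 4 h after 5 Gy of gamma radiation. For the genotypes labelled p53-/- and p53+/+ there were 2 untreated arrays apiece and a single array at either time after the same dose. The labels do not give the construction of the P72, R72 or p53-/- alleles. They do not say whether the 2 untreated arrays of p53-/- or of p53+/+ came from separate pools, so these arrays may not be independent. The spread behind the p-values there was taken from all 32 arrays, mostly those of P72 and R72.

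The transcription factor p53 is stabilised after DNA breaks, binds response elements near its target genes and drives their transcription, which in thymocytes leads to rapid apoptosis. The Thyn1 protein is nuclear, was described in lymphocyte apoptosis, and carries an EVE domain, a fold related to the YTH domain that reads modified bases in RNA. Thyn1 was also found among proteins that bind DNA with modified cytosines.

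Levels are given as log2 of the processed signal relative to each array's own 75th percentile, which lay between 268 and 1031 fluorescence units. Within groups, arrays correlated at 0.974 to 0.995. All 16 thymocyte markers of the list used were well above background on every array. The R72 2 h arrays held both the lowest and the highest share of probes the scanner software called well above background, 52.2% and 71.2%. The labels give 1 male and 1 female per pool, yet the female-specific RNA Xist was between -7.92 and -3.73 in replicates 1 and 3 of P72 and R72 and between 5.11 and 5.83 in replicates 2 and 4. It was between -8.82 and -7.20 on all p53-/- arrays, above 5 on both irradiated p53+/+ arrays, and -0.88 and -1.46 on the untreated p53+/+ arrays.

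The 2 Thyn1 probes do not read the same strand, and their sequences are shown because only the first carries the response. The first, A_51_P323620, lies at chr9:26890259-26890318 of build mm7 on the forward strand and was well above background on all 32 arrays. The second, A_51_P352316, lies at chr9:26888842-26888901 on the reverse strand, 1357 bases away, and was well above background on 31 of 32 arrays. In the files, 9044 of 9136 probes of reverse-strand genes list their end before their start, as the second probe does, against 81 of 9329 probes of forward-strand genes, and Thyn1 is a forward-strand gene in RefSeq (GRCm38.p6). No mm7 annotation was used here, so neither probe was placed in an exon or intron. Both designed 60-base probes are printed 5′ to 3′ in lower case, with no part marked.
A_51_P323620: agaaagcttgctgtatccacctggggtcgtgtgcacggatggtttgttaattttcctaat
A_51_P352316: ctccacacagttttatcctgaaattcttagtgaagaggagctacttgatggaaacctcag

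In RefSeq (GRCm38.p6) Thyn1 starts head to head with Acad8, which encodes the mitochondrial isobutyryl-CoA dehydrogenase of valine breakdown, and Vps26b, a retromer subunit gene on the opposite strand, overlaps its other end. The 127 bases between 1 RefSeq transcript start of each gene, chr9:26999550-26999676 of GRCm38.p6 on the Thyn1 strand, are shown because both genes responded to irradiation. The outermost bounds of the genes, 26999571 for Acad8 and 26999642 for Thyn1, lie inside this stretch, so part of it is transcribed in other annotated transcripts. Capitals mark the letters CCAAT and GGGCGG, searched on both strands.
Acad8 to Thyn1: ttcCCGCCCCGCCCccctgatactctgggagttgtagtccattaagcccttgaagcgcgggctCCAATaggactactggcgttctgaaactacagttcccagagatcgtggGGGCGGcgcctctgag
The stretch held CCAAT 1 time and GGGCGG or its complement 3 times, 2 of them overlapping in 1 run. Among 32844 RefSeq windows of 127 bases before a gene start, 22.1% held CCAAT and 27.1% held GGGCGG on either strand. No decamer of the p53 response element was found in it with at most 1 mismatch outside the conserved C and G, and 25.2% of the windows held at least 1. Its absence says only that these letters are not in this window.

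The targeted gene itself was read by 2 Trp53 probes. The brighter, A_52_P781398, was between -0.50 and -0.10 on the p53-/- arrays and between -0.13 and 0.24 on the p53+/+ arrays, and its group means were between -0.07 and 0.33 in P72 and R72. The second, A_52_P491849, had group means of -6.56 to -4.24 in P72 and R72 thymocytes, against -1.78 to -1.60 in p53-/- and -0.85 to -0.68 in p53+/+. The part of the gene that is deleted or replaced is not given in the sources used here, so these probes check no label.

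In P72 thymocytes the forward Thyn1 probe was at 4.01, 4.13, 4.31 and 4.33 at 0 h, at 5.73, 5.87, 5.92 and 6.22 at 2 h, and at 5.42, 5.37, 5.76 and 5.90 at 4 h, in the order of replicates 1 to 4. In R72 thymocytes it was at 3.98, 4.13, 4.39 and 4.39 at 0 h, at 4.10, 4.03, 4.78 and 4.36 at 2 h, and at 4.97, 4.40, 5.02 and 4.54 at 4 h. Every irradiated P72 array lay above every R72 array of any time, the R72 arrays at 0 h and 2 h overlapped, and the untreated arrays of P72 and R72 overlapped.

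The p53-/- arrays were at 4.21 and 4.23 at 0 h, at 4.45 at 2 h and at 4.30 at 4 h. The p53+/+ arrays were at 4.38 and 4.27 at 0 h, at 6.18 at 2 h and at 6.02 at 4 h. The irradiated p53+/+ arrays lay within the range of the irradiated P72 arrays, and all 4 p53-/- arrays lay between the lowest and highest values of R72 at 2 h.

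**Figure D1:**
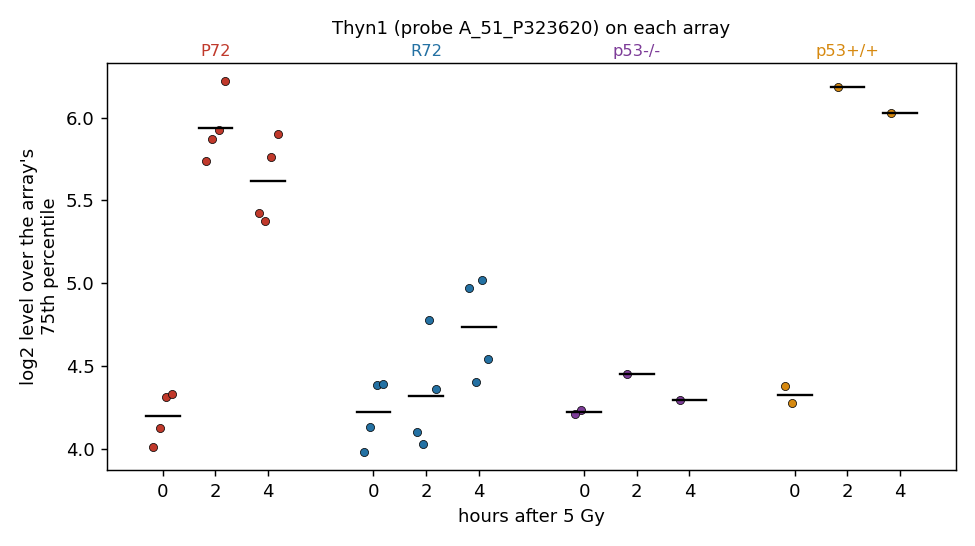
Level of Thyn1 on each array by the forward-strand probe (log2 over the array's 75th percentile) against hours after 5 Gy, for P72, R72, p53-/- and p53+/+ thymocytes. Points are arrays and lines are group means; irradiated P72 arrays sit between 5.37 and 6.22 and irradiated R72 arrays between 4.03 and 5.02.

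Ordered by mean, the 12 groups ran p53+/+ at 2 h (6.18) and 4 h (6.02), P72 at 2 h (5.94) and 4 h (5.61), R72 at 4 h (4.73), p53-/- at 2 h (4.45), p53+/+ at 0 h (4.33), R72 at 2 h (4.32), p53-/- at 4 h (4.30), R72 at 0 h (4.22), p53-/- at 0 h (4.22) and P72 at 0 h (4.19). The gap of 0.88 between P72 at 4 h and R72 at 4 h was 3.68 pooled SDs (pooled SD 0.24), and the other gaps between neighbours in this order were at most 1.35 pooled SDs. The 7 groups below R72 at 4 h had means between 4.19 and 4.45.

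As a description of the choice, Thyn1 was 3.35-fold higher in P72 thymocytes at 2 h than at 0 h (log2 difference 1.74 ± 0.17, SE, n = 4 each), and 1.07-fold higher in R72 thymocytes (0.09 ± 0.17). The difference of these responses was 1.65 ± 0.25, and the adjusted p that selected the gene was 0.0340, for 1 of 20544 genes tested (0.00487%). The P72 values at 2 h minus 0 h, taken between arrays of the same replicate number, were 1.61 to 1.89, and those of R72 were -0.10 to 0.39. At 4 h the corresponding differences from 0 h were 1.25 to 1.57 in P72 and 0.15 to 0.99 in R72, with means of 1.42 ± 0.17 and 0.51 ± 0.17 (SE, n = 4 each).

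The genes just outside the threshold had adjusted p of 0.721 or more. Among them were Col17a1 (difference of responses 2.01), which encodes a collagen of epithelial hemidesmosomes, Pttg1 (0.73), which encodes securin, Dmxl2 (1.19), Acad8 (0.66), 1700024P16Rik, Nectin1 (1.10) and Tgfbr3 (-0.84). For the 6 genes named here with a positive difference, the P72 level at 0 h was below the R72 level, by 0.38 to 1.44 on the log2 scale, and at 2 h P72 was above R72 by 0.02 to 0.58. For Thyn1 the P72 minus R72 difference was -0.03 at 0 h and 1.62 at 2 h. Col17a1, Dmxl2, 1700024P16Rik and Tgfbr3 were dim, with P72 and R72 group means between -6.67 and -3.67. How far their differences depend on the processing was not tested.

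Markers of thymic epithelium moved with this comparison. Their summed linear level was 35.8 to 50.1 on P72 arrays at 2 h and 11.8 to 28.2 at 0 h, against 33.1 to 56.7 on R72 arrays at 2 h and 32.6 to 41.5 at 0 h. Of the 9 markers, 5 were higher at 2 h than at 0 h in P72 (9.65% of all genes tested were) and 0 in R72 (6.24%), and their median difference of responses was 0.98, against 0.04 over all genes. The 9 macrophage markers had a median difference of 0.37, the 8 measured neutrophil markers one of 0.48, and the 8 of fibroblasts and endothelium one of 0.45. No marker of these lists passed the limma test of that difference, a result the rule itself contains, since Thyn1 was the single gene to pass. Thymocyte markers had a median of 0.11. For P72 minus R72 at 4 h the medians were 0.02 for thymic epithelium, 0.02 for neutrophils and -0.08 for thymocytes. They were 0.37 for macrophages and 0.40 for fibroblasts and endothelium, against 0.03 over all genes. All of these markers were listed above background on at least some arrays, and their part in the Thyn1 values was not tested. Bulk RNA cannot tell fewer cells of a type from less RNA per cell.

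At 4 h, a time whose means the choice did not use, Thyn1 was 1.84-fold higher in P72 than in R72 thymocytes (log2 difference 0.88 ± 0.17, SE, n = 4 each, 95% interval 0.52 to 1.24). The 2 groups did not overlap, and the limma adjusted p over all genes was 0.0144, with 1.24% of genes called. A two-sided exact permutation test of the 8 arrays gave p = 0.0286, the smallest that 70 splits allow. The arrays at 4 h share mouse lines with those that chose the gene. No slide held both P72 4 h and R72 4 h arrays, so these groups were compared only across slides. The limma adjusted p was between 0.0504 and 0.0635 without P72 4 h replicate 3 or 4, or without R72 4 h replicate 2 or 4, with differences of 0.77 to 0.83. The difference was 0.60 ± 0.25 within replicates 1 and 3, where Xist was low, and 1.16 ± 0.23 within replicates 2 and 4, where it was high. Replicates 1 and 2 were scanned on the same date, while the P72 and R72 4 h arrays of replicates 3 and 4 were scanned on different dates. The difference was 0.71 ± 0.17 within replicates 1 and 2 and 1.05 ± 0.20 within replicates 3 and 4. None of these subsets of 2 arrays a group passed the adjusted threshold. The call was also lost with normexp background correction (0.91, limma adjusted p = 0.291), array median scaling (0.73, limma adjusted p = 0.0813) and slide as a fixed block (0.86, limma adjusted p = 0.0988).

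**Figure D2:**
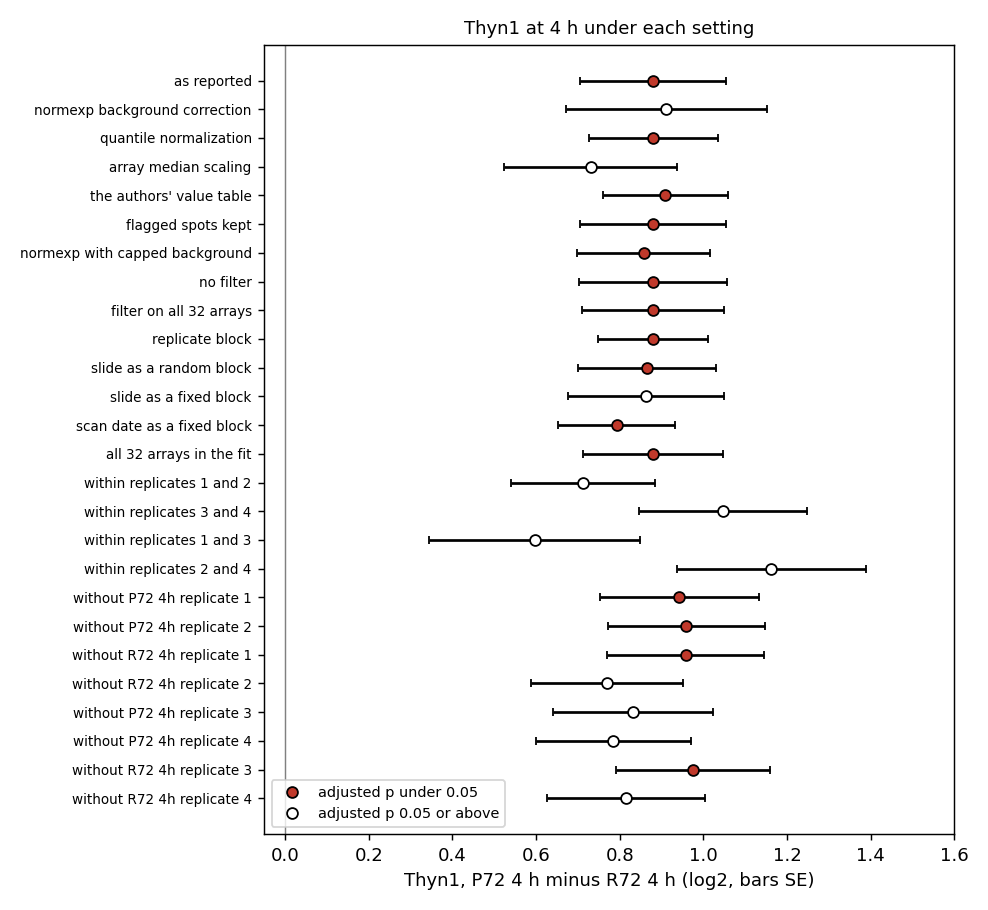
Thyn1 difference between P72 and R72 thymocytes at 4 h (log2, bars SE) as reported and under each other setting, with filled points where the limma adjusted p was under 0.05. All values are above 0, between 0.60 and 1.16.

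After irradiation Thyn1 was 3.32-fold lower in p53-/- than in p53+/+ thymocytes (log2 difference -1.73 ± 0.24, SE, mean of 2 h and 4 h, n = 2 each; limma adjusted p = 2.53e-05, with 21.9% of all genes called). Both p53-/- arrays, 4.45 and 4.30, lay below both p53+/+ arrays, 6.18 and 6.02. In the same comparison 4 of the 9 thymic epithelium markers were lower in p53-/- (13.2% of all genes were) and 0 were higher (8.70%). Their part in the Thyn1 value was not tested. Before irradiation the difference was -0.10 ± 0.24 (limma adjusted p = 0.943, 95% interval -0.59 to 0.38; 0.711% of genes called).

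Within p53+/+ thymocytes Thyn1 rose 3.43-fold with irradiation (1.78 ± 0.24, SE, limma adjusted p = 1.39e-05; 23.5% of genes called). In p53-/- thymocytes the difference was 0.15 ± 0.24 (limma adjusted p = 0.890, 95% interval -0.33 to 0.64; 1.07% called). The responses differed by -1.62 ± 0.33 between p53-/- and p53+/+ (limma adjusted p = 0.00499; 5.41% called), a call lost with normexp background correction (-1.37, limma adjusted p = 0.195). The p53-/- and p53+/+ contrasts share arrays with each other, and the spread of their single irradiated arrays was taken from all 32 arrays. The irradiated p53+/+ arrays had Xist above 5 and the untreated ones below 0, while all p53-/- arrays were at -7.20 or lower. Xist thus moved with the p53+/+ response and with the difference of responses, and its part there was not tested. All p53-/- and p53+/+ arrays were on slides of their own, so no level of theirs was tested against P72 or R72.

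The second Thyn1 probe, on the reverse strand, was dim and did not show this pattern. Its group means were -4.03, -4.27 and -4.55 in P72 at 0, 2 and 4 h, against -3.64, -3.50 and -3.99 in R72. At 4 h it was at -0.57 ± 0.25 in P72 relative to R72, opposite in sign to the first probe and short of the adjusted threshold (limma adjusted p = 0.329, exact permutation p = 0.0286, the smallest allowed). Between p53-/- and p53+/+ after irradiation its difference was 0.29 ± 0.35 (limma adjusted p = 0.576).

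Of the 11 genes of the list of Thyn1's neighbours on chromosome 9, 9 were on the array and 6 passed the filter: Acad8, Vps26b, Ncapd3, Jam3, Glb1l2 and B3gat1. After irradiation 2 of the 6 were lower in p53-/- than in p53+/+ (13.2% of all genes were), and 0 were higher (8.70%). Their median difference was 0.15, against -0.06 over all genes.

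Acad8, read by a reverse-strand probe at chr9:26858100-26858159 (mm7), rose with irradiation in P72, R72 and p53+/+ thymocytes. In P72 it was at -1.77, -1.79, -1.59 and -1.63 at 0 h, at -0.38, -0.24, -0.29 and -0.35 at 2 h, and at -0.50, -0.71, -0.42 and -0.47 at 4 h. In R72 it was at -1.02, -1.11, -1.61 and -1.51 at 0 h, at -0.65, -0.44, -0.56 and -0.73 at 2 h, and at -0.58, -0.53, -0.56 and -0.55 at 4 h. The irradiated arrays lay above the untreated ones in each line, without overlap.

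Acad8 was 2.61-fold higher at 2 h than at 0 h in P72 (1.38 ± 0.11, limma adjusted p = 1.34e-08; 14.5% of genes called) and 1.65-fold higher in R72 (0.72 ± 0.11, limma adjusted p = 1.33e-04; 13.0% called). At 4 h P72 and R72 differed by 0.03 ± 0.11 (limma adjusted p = 0.929), where Thyn1 differed by 0.88 ± 0.17. The difference between these 2 values was not tested. The Acad8 arrays at 4 h overlapped between P72 and R72.

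In p53-/- thymocytes Acad8 was at -1.48 and -1.40 at 0 h, at -1.30 at 2 h and at -1.21 at 4 h, against -1.56 and -1.50 at 0 h, 0.02 at 2 h and -0.05 at 4 h in p53+/+. It was lower in p53-/- than in p53+/+ after irradiation with a log2 difference of -1.24 ± 0.15 (limma adjusted p = 3.35e-06), and the responses differed by -1.33 ± 0.21 (limma adjusted p = 3.17e-04). Acad8 and Thyn1 both passed p53-/- against p53+/+ after irradiation, the difference of these responses, and p53+/+ irradiated minus 0 h. Neither passed p53-/- against p53+/+ at 0 h or p53-/- irradiated minus 0 h. Only Thyn1 of the 2 passed P72 against R72 at 4 h.

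**Figure D3:**
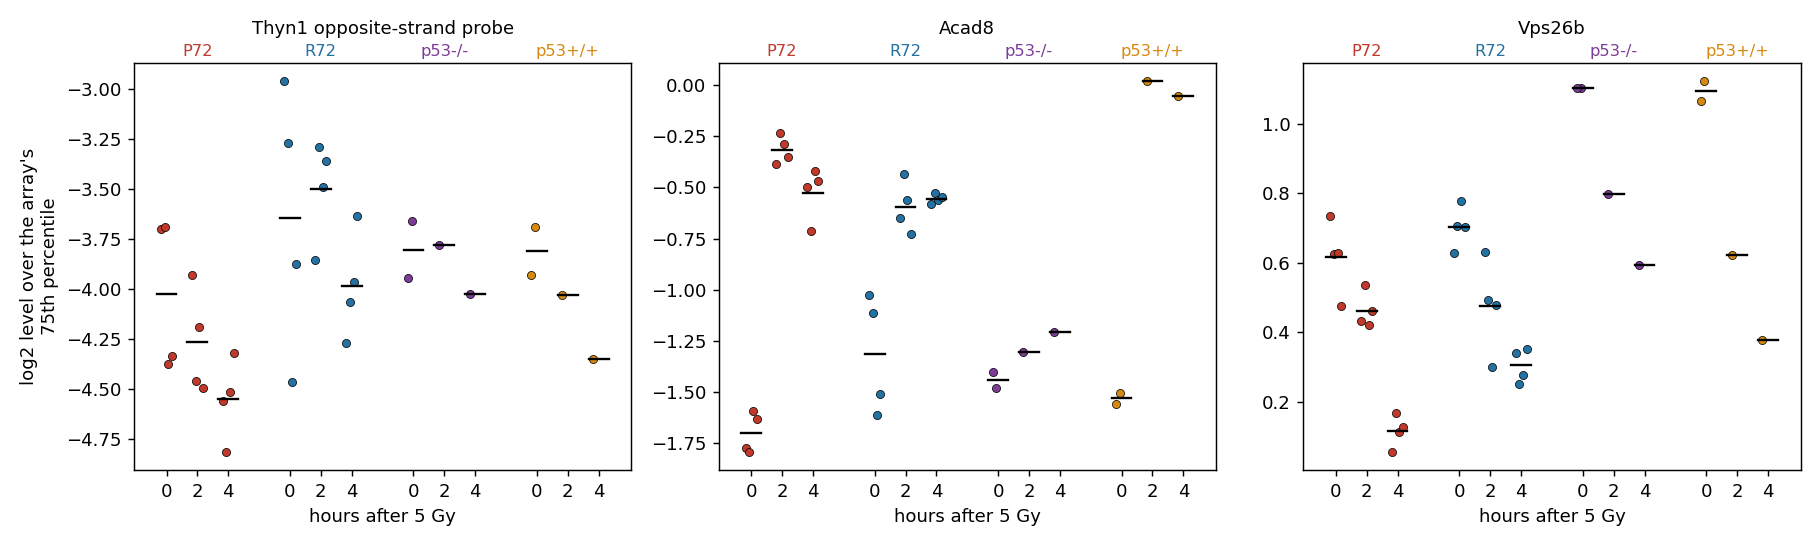
Levels (log2 over the array's 75th percentile; each panel has its own axis) of the reverse-strand Thyn1 probe, Acad8 and Vps26b on each array against hours after 5 Gy, for P72, R72, p53-/- and p53+/+ thymocytes; lines are group means. Acad8 at 4 h averaged -0.53 in P72 and -0.55 in R72, while Vps26b at 4 h averaged 0.12 in P72 and 0.30 in R72.

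Vps26b was read by a reverse-strand probe 1118 bases beyond the forward Thyn1 probe. It fell by 0.50 ± 0.07 at 4 h in P72 (limma adjusted p = 8.27e-06; 56.7% of genes called) and by 0.40 ± 0.07 in R72 (limma adjusted p = 1.57e-04; 44.9% called), and with array median scaling by 1.12 in P72 and by 0.88 in R72. It also fell with irradiation by 0.41 ± 0.09 in p53-/- (limma adjusted p = 0.0352) and by 0.59 ± 0.09 in p53+/+ (limma adjusted p = 1.20e-04; with array median scaling by 1.00). The p53-/- call was lost with quantile scaling, array median scaling and capped normexp (limma adjusted p = 0.0614, 0.223 and 0.0629). No P72 against R72 or p53-/- against p53+/+ comparison of Vps26b passed, with limma adjusted p of 0.136 or more, but with array median scaling it was higher in irradiated p53-/- than p53+/+ thymocytes (0.57, limma adjusted p = 0.00426).

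Glb1l2, which encodes a beta-galactosidase-like protein, was the other neighbour lower in irradiated p53-/- than p53+/+ thymocytes (-1.39 ± 0.40, limma adjusted p = 0.0177), a call lost with quantile scaling (limma adjusted p = 0.209) and in the authors' values (limma adjusted p = 0.407). It rose at 4 h in P72 by 1.70 ± 0.27 and in R72 by 1.99 ± 0.27 (limma adjusted p = 2.98e-05 and 1.10e-05), and was well above background on 19 of 32 arrays. These values depended on the processing: in the authors' values they were 0.17 in P72, where the call was lost (limma adjusted p = 0.0661), and 0.28 in R72, with quantile scaling 0.68 and 1.24, and with capped normexp 0.69 and 0.65. Ncapd3, a condensin II subunit gene next to Vps26b, passed none of the 14 comparisons.

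Known p53 targets rose in both lines. Of 45 tested, 37 were higher at 2 h in P72 (9.65% of all genes were) and 36 in R72 (6.24%), while 1 was lower in P72 and 0 were in R72, with median differences of 1.67 and 1.43, against 0.05 and 0.03 over all genes. The P72 and R72 comparisons do not share arrays. None of the 45 passed the test of a different response at 2 h in limma, a result that the rule itself contains, since Thyn1 was the single gene to pass.

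Among these targets, Cdkn1a, which encodes the cell cycle inhibitor p21, rose by 4.21 in P72 and by 3.33 in R72 on the log2 scale. Phlda3, an inhibitor of Akt signalling, rose by 5.09 and 5.01, and Bbc3, which encodes the BH3-only killer Puma, by 3.44 and 3.33 in P72 and R72. Mdm2, the ubiquitin ligase of p53, rose by 1.05 in P72 and by 0.85 in R72. Bax, the pore-forming Bcl-2 family member, rose by 2.03 and by 2.21, and Ccng1, which encodes cyclin G1, by 2.77 in P72 and by 2.60 in R72. The limma adjusted p of these 12 values was at most 6.96e-05.

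Over the 28 targets that rose by at least 1 on the log2 scale in P72, the R72 response was a median of 90.6% of the P72 response, from 22.1% (Perp, which encodes a desmosomal p53 effector) to 109% (Bax). For Thyn1 it was 5.42%. Over all 955 genes that rose by at least 1 in P72 at 2 h, 390 were also called higher in R72, and 87 had a lower share than Thyn1. These genes were selected on their P72 response, so their R72 share is a description only.

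**Figure D4:**
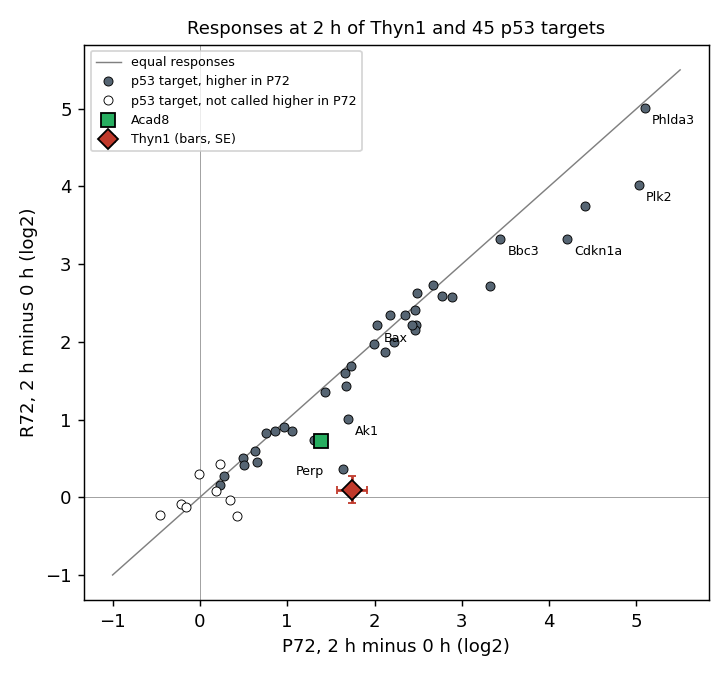
Response at 2 h (log2, 2 h minus 0 h) in R72 against P72 thymocytes for 45 p53 targets, Acad8 and Thyn1, with the line of equal responses; open circles are targets not called higher in P72, and bars on Thyn1 are SE. Thyn1 lies at 1.74 in P72 and 0.09 in R72, and Perp at 1.64 and 0.36.

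In irradiated thymocytes 34 of the 45 targets were lower in p53-/- than in p53+/+ (13.2% of all genes were) and 0 were higher, with a median difference of -2.20, and Thyn1 was at -1.73. At 4 h 1 of the 45, Gdf15, which encodes a stress-induced cytokine, was higher in P72 than in R72 (1.24 ± 0.27, limma adjusted p = 0.0254; 0.667% of genes were higher) and 0 were lower (0.574%).

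A list of genes for cytosine methylation and base repair was counted at 2 h, and its counts were not tested against the shares of all genes. Of 24 measured readers and enzymes of cytosine methylation and its repair, 1 was higher and 5 were lower at 2 h in P72 (9.65% and 4.88% of all genes), and 0 were higher and 7 lower in R72 (6.24% and 6.79%). Ung, which encodes uracil-DNA glycosylase, fell by 1.18 ± 0.15 in P72 and by 1.32 ± 0.15 in R72 (limma adjusted p = 1.21e-05 and 3.07e-06). Apex1, which encodes the endonuclease for abasic sites, fell by 0.83 ± 0.11 and by 0.93 ± 0.11 (limma adjusted p = 2.53e-05 and 6.60e-06).

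In this list, 5 of the 24 were higher and 1 was lower in irradiated p53-/- than p53+/+ thymocytes (8.70% and 13.2% of all genes). The higher ones were Ung (1.22 ± 0.20), Apex1 (1.11 ± 0.15), Uhrf1 (0.86 ± 0.19), which recognises hemimethylated DNA, Mbd3 (0.46 ± 0.16) and the maintenance methyltransferase gene Dnmt1 (0.44 ± 0.13), and the lower one was the glycosylase gene Neil1 (-0.89 ± 0.19), with limma adjusted p of 2.49e-05 to 0.0434. Neil1 was also the one member that rose in P72 at 2 h (0.46 ± 0.14, limma adjusted p = 0.0327). With array median scaling, which moved the median of all genes by 0.38 and called 8285 of 20544 genes in irradiated p53-/- against p53+/+ thymocytes, 16 of the 24 were higher and 1 was lower, and nothing is read from that count. None of the 24 passed between P72 and R72 at 4 h in limma.

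Of the 4 measured YTH domain genes, 0 passed at 2 h in P72 or R72. In irradiated thymocytes 1, Ythdf1, a reader of methylated adenosine in mRNA, was higher in p53-/- than in p53+/+ (0.51 ± 0.13, limma adjusted p = 0.00759; 8.70% of all genes were higher).

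Among 23 measured survival and apoptosis genes, 3 rose and 4 fell at 2 h in P72 (9.65% and 4.88% of all genes), and 3 rose and 3 fell in R72 (6.24% and 6.79%). Fasl, which encodes the Fas ligand, was lower in irradiated p53-/- than p53+/+ thymocytes with a log2 difference of -1.57 ± 0.18 (limma adjusted p = 1.86e-06), and in that comparison 4 of the 23 were lower and 3 were higher (13.2% and 8.70% of all genes). At 4 h 1 of the 23, Fasl again, was higher in P72 than in R72 (0.79 ± 0.13, limma adjusted p = 0.00344; 0.667% of genes were higher).

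The genes most like Thyn1 were ranked by Pearson's r of the log2 levels over the 32 arrays, among 16278 named genes, as a description. The arrays share groups and slides, so r is not over independent samples. Genes picked by r were picked on these same arrays, so the p-values given for them below are no independent test. The highest were Qpctl (0.85), Azin2 (0.83), Robo3 (0.82), Sgpp1 (0.81), Tpd52 (0.81), Pdrg1 (0.81), Thrb (0.80) and Vopp1 (0.80), with 0.70 as the 99th percentile. Over the 12 group means these r were 0.81 to 0.93, and over the deviations from group means -0.25 to 0.70. The lowest r were those of 1700066M21Rik (-0.80), Hrh3 (-0.79), Stx1a (-0.78) and A430057L12Rik (-0.78).

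Qpctl, which encodes a Golgi glutaminyl cyclase, had a level of -0.57 in P72 and -1.06 in R72 at 2 h, and of -1.33 in P72 and -1.96 in R72 at 0 h. It was higher in P72 than in R72 at each time (limma adjusted p = 6.00e-04, 0.00595 and 3.71e-05 at 0, 2 and 4 h, where 0.92%, 1.28% and 1.24% of genes were called), and rose at 2 h in both lines (0.75 ± 0.09 in P72 and 0.90 ± 0.09 in R72). For Thyn1 the P72 minus R72 difference at 0 h was -0.03.

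Azin2, which encodes an antizyme inhibitor, was higher in P72 than in R72 at 2 h and 4 h (1.04 ± 0.21 and 1.09 ± 0.21, limma adjusted p = 0.0161 and 0.0134, with 1.28% and 1.24% of genes called). It was lower in irradiated p53-/- than p53+/+ thymocytes (-3.08 ± 0.33, limma adjusted p = 6.36e-07, with 21.9% of genes called). Robo3, which encodes an axon guidance receptor, was higher in P72 at 4 h (0.96 ± 0.19, limma adjusted p = 0.0127) and lower in irradiated p53-/- thymocytes (-4.73 ± 0.26, limma adjusted p = 5.95e-12). Both also rose at 2 h in R72, Azin2 by 1.24 ± 0.21 and Robo3 by 1.47 ± 0.19, against 1.73 ± 0.21 and 1.99 ± 0.19 in P72. Both were dim in P72 and R72, with group means of -6.19 to -3.62 for Azin2 and -4.83 to -2.42 for Robo3. How far their differences depend on the processing was not tested. All 8 genes with the highest r were lower in irradiated p53-/- than p53+/+ thymocytes (13.2% of all genes were), a direction that their likeness to Thyn1 favours. The 6 p53 targets named above had r from 0.59 for Mdm2 to 0.72 for Cdkn1a.

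**Figure D5:**
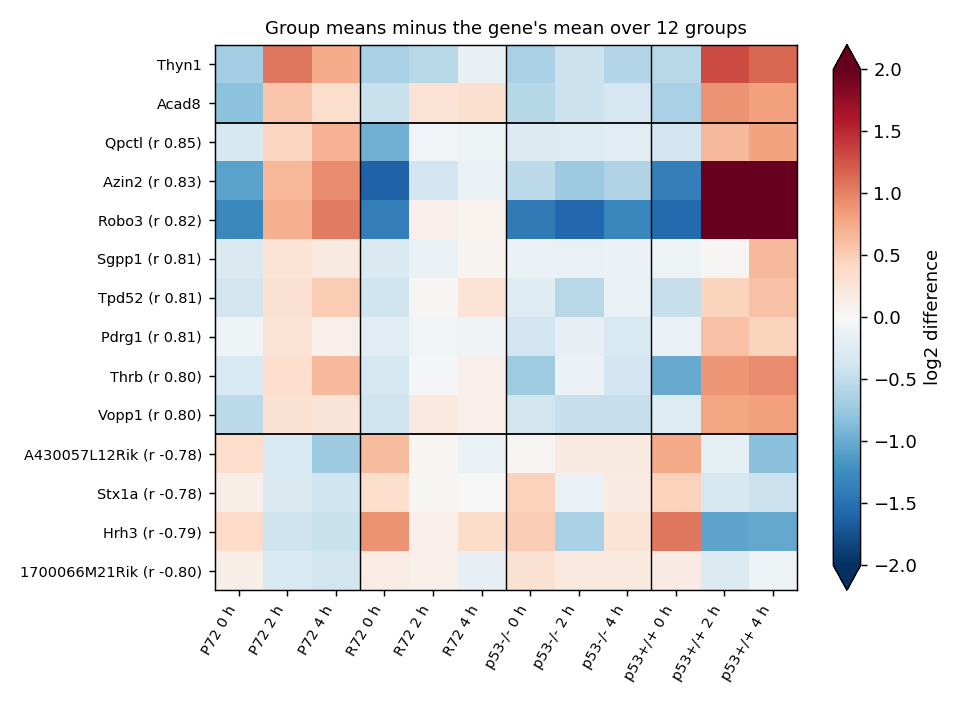
Group means minus the gene's own mean over the 12 groups (log2, colour, with the scale ending at 2 in either direction) for Thyn1, Acad8, and the 8 genes with the highest and 4 with the lowest r to Thyn1 over 32 arrays. Thyn1 is high in irradiated P72 and p53+/+ groups, and Azin2 and Robo3 in irradiated p53+/+ groups lie past the end of the scale.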

How the data were processed

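The authors' deposited scanner files hold spot intensity written by Agilent Feature Extraction (9.5.3.1 per the file headers), with mm7 coordinates. Per the labels, 500 ng RNA was labelled with Cy3 (QuickAmp). Their deposited table of log2 values, method not stated, served as an alternative. Control spots and outlier-flagged values (0.223%) were left out, spots of a probe averaged, and values taken as log2 intensity minus each array's 75th percentile. Probes were kept where at least 4 arrays had them well above background, and the brightest stood for its gene. The number of arrays limits the precision. Contrasts were fitted in limma 3.58.1 (R 4.3.3) on 24 arrays for P72 and R72 and on 32 for p53-/- and p53+/+, with Benjamini-Hochberg adjustment over 20544 genes and a threshold of 0.05. Fits were tested on simulated data. Named genes were the Thyn1 probes and Trp53, the 8 highest and 4 lowest r, the next 8 genes in the 2 h difference, chromosome 9 neighbours, 6 p53 targets and up to 4 of each list; some are not reported here. The members and lists were chosen with earlier results of these data known. Figures were drawn with matplotlib 3.10.9.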

Additional observations from a re-analysis of the deposited data

Results flagged for a closer look

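The responses of Thyn1 to irradiation differed between p53-/- and p53+/+ thymocytes by -1.62 on the log2 scale, tested as the difference itself in limma (SE 0.33, adjusted p = 0.00499), with 2 untreated and 2 irradiated arrays a genotype. The irradiated p53-/- arrays were at 4.45 and 4.30 and the untreated ones at 4.21 and 4.23, and the irradiated p53+/+ arrays were at 6.18 and 6.02 and the untreated ones at 4.38 and 4.27.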

How the results depend on the processing

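The number of arrays limits the precision, and the single p53-/- and p53+/+ arrays at each time after irradiation were assumed to vary like the others. Thyn1 in P72 minus R72 at 4 h, 0.88, missed the limma threshold with normexp (0.91), array median scaling (0.73), slide as a fixed block (0.86), and within replicates 1 and 2 (0.71), 3 and 4 (1.05), 1 and 3 (0.60) or 2 and 4 (1.16). Leaving out 1 array at a time gave 0.77 to 0.98. The difference of responses of p53-/- minus p53+/+ missed it with normexp (-1.37). Array median scaling gave 0.80 for P72 and 0.034 for R72 at 4 h minus 0 h, and by construction moved the median of all genes in these by -0.62 and -0.48. Within replicates 1 and 3 the R72 difference of 4 h minus 0 h was 0.81 and the P72 minus R72 difference of responses 0.62, and within replicates 2 and 4 they were 0.21 and 1.20. The split by Xist was chosen after seeing the data. The reverse-strand Thyn1 probe turned the direction of 4 results that had passed the threshold: P72 minus R72 at 4 h (-0.57), p53-/- minus p53+/+ irradiated (0.29), their difference of responses (0.28) and p53+/+ irradiated minus 0 h (-0.38). It also gave -0.24 for P72 2 h minus 0 h, -0.53 for P72 4 h minus 0 h, -0.34 for R72 4 h minus 0 h, -0.38 and -0.77 for P72 minus R72 at 0 h and 2 h, and a P72 minus R72 response difference of -0.39 (2 h) and -0.18 (4 h). Beyond the processing steps named, the cause was not tested. With the replicate block the P72 minus R72 difference at 4 h was 0.88 and kept its call, and genes called went to 463, against 255 without it. Same-number arrays deviated together (r over 0.1) in 25 of 36 pairs, and 21 of 24 arrays correlated best with their own number. Over the settings that keep every array of a group or a fixed subset, the genes called were 2 to 495 for P72 minus R72 at 4 h, 920 to 8454 for p53-/- minus p53+/+ irradiated (4494 as reported), 225 to 2296 for their difference of responses (1111), 1002 to 8104 for p53+/+ irradiated minus 0 h (4837), 22 to 470 for p53-/- irradiated minus 0 h (219) and 15 to 333 for p53-/- minus p53+/+ at 0 h (146). Leaving out 1 array moved these counts to 104 to 211, 682 to 5816, 307 to 2321, 1211 to 5977, 23 to 209 and 29 to 45 in the same order. The other 305 comparisons of a Thyn1 value with an alternative kept their side of the threshold where tested. Where not tested, they moved by no more than the spread between replicates. Tested values short of the threshold could still change sign. With the reverse-strand probe, p53-/- irradiated minus 0 h went from 0.15 to -0.10, and p53-/- minus p53+/+ at 0 h from -0.10 to 0.005.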
